A study of Caenorhabditis elegans with 12 samples.

Results

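The genes followed were 7 members of the Caenorhabditis elegans cell death pathway that act in the germline: cep-1, egl-1, ced-13, ced-9, ced-4, ced-3 and ced-1. They are a list of names, and the rule for membership used no measured value; all 7 were found among the 20389 gene rows of the count tables. In the WBcel235 annotation cep-1 and ced-1 lie on chromosome I, ced-4 and ced-9 on III, ced-3 on IV, egl-1 on V and ced-13 on X, so ced-13 was the X-linked member. All are protein coding, with summed exon lengths of 4875 bp for ced-1, 3278 bp for cep-1, 2552 bp for ced-3, 1932 bp for ced-4, 1285 bp for ced-9, 559 bp for egl-1 and 412 bp for ced-13. A non-coding RNA gene, C48D1.12, overlaps ced-3 on the opposite strand, and the reads of this pair cannot be told apart, because no source used here says whether counting used strand. The start of ced-9 lies 3 bp behind mev-1 on the same strand.

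Many germ cells of the female-type C. elegans gonad die by apoptosis at the end of meiotic pachytene as part of normal oogenesis, and DNA damage or failed chromosome pairing adds further deaths. CED-9, a Bcl-2 family protein on mitochondria, holds back the adaptor CED-4, and freed CED-4 activates the caspase CED-3. The p53-like transcription factor CEP-1 responds to DNA damage by raising transcription of egl-1 and ced-13, whose BH3-only proteins release CED-4 from CED-9, and the receptor CED-1 lets gonadal sheath cells recognise and engulf the corpses. Normal oogenic deaths need ced-3 and ced-4 but neither egl-1 nor cep-1.

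Every group carried the fog-1(q253) mutation, which at the restrictive temperature used, 25 °C, turns sperm fate to oocyte fate, so that XO (male-bodied) and XX (female-bodied) animals both made oocytes. Polyadenylated RNA of young adults was sequenced in 4 groups of 3 libraries: dissected XO gonads, dissected XX gonads, whole XO worms and whole XX worms. A gonad library pooled at least 200 gonads and a whole worm library at least 600 hand-picked animals. No library of wild-type animals was analysed here, dissected gonads still hold somatic cells, male in XO and female in XX animals, and the allele is the same in every group. Whether replicates were grown separately is not labelled, and p-values therefore measure the spread between these samples, which may be technical.

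The libraries held 7912618 to 16140259 gene counts. Transcripts of fog-1 itself stood at 593 to 626 CPM (counts scaled to library size and composition) in XO gonads and 38.5 to 47.1 in XX gonads, which separates the karyotypes but does not check the allele. All 20 germline markers had counts in every group. Their summed level was 20447 to 22506 CPM in XO gonads, 22586 to 26024 in XX gonads and 11734 to 14221 in whole worms. In the XO against XX test of gonads below, 3 of the 20 passed as higher in XO and none as lower. Among all autosomal genes 8.41% passed as higher and 11.9% as lower. The summed level of 8 sheath and spermatheca markers was 23.5 to 33.2 CPM in XO gonads and 292 to 308 in XX gonads. XX gonad replicate 1 stood apart: the chi-square of its counts per degree of freedom against its partners was 113 and 155, where all other replicate pairs gave 4.80 to 19.7, and its deviation from them fell with exon length (median log2 deviation 0.19 for genes under 1000 bp and -1.12 for genes over 4000 bp). Values without it stand beside the gonad results of cep-1, ced-4, ced-9 and ced-1 and the gonad to whole worm results of cep-1 and ced-4, and leaving it out changed no other call of a member.

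Read per kilobase of exon, so that genes could be set beside each other, ced-3 was the most abundant of the 7 in every group. In XO gonads the levels were 150 ± 7.52 CPM per kb for ced-3 and 116 ± 8.63 for ced-9 (SD, n = 3, here and below). They were 31.8 ± 0.769 for ced-1, 28.4 ± 0.790 for ced-4 and 26.9 ± 1.65 for cep-1, and 7.04 ± 0.470 for egl-1. The caspase and its Bcl-2-like brake thus formed the top of the set, the engulfment receptor, the adaptor and the p53-like factor a middle tier, and the BH3-only trigger egl-1 stood below them, with ced-13 at 0. XX gonads kept this order, at 153 ± 14.2 for ced-3, 114 ± 16.9 for ced-9, 39.998 ± 5.22 for ced-1, 25.6 ± 8.54 for ced-4, 20.2 ± 11.6 for cep-1 and 6.23 ± 0.789 for egl-1. In whole worms the corresponding levels of ced-3 were 89.0 ± 1.68 (XO) and 94.6 ± 0.439 (XX), and those of egl-1 were 5.42 ± 0.795 and 3.02 ± 0.477. Neighbours in the order had replicate values that did not overlap in any group, except ced-4 and cep-1, which overlapped in all 4 groups and changed places in XO whole worms. Among 19857 gene rows with an exon length, ced-3 lay at percentile 93.2 to 96.3 of its group and ced-9 at 91.5 to 94.8, while egl-1 lay at 57.2 to 73.1.

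The proportion of brake to adaptor was similar in 3 of the groups. The level per kb of ced-9 was 4.09 ± 0.398 times that of ced-4 in XO gonads, 4.14 ± 0.478 times in XO whole worms and 4.15 ± 0.681 times in XX whole worms. In XX gonads the ratios of replicates 1, 2 and 3 were 8.44, 3.42 and 3.45, so the library that stood apart carried the high value. The ratio of ced-3 to ced-9, both of which are well above the other members, ran from 1.05 to 1.55 over all 12 libraries. No test was made of these ratios.

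**Figure D1:**
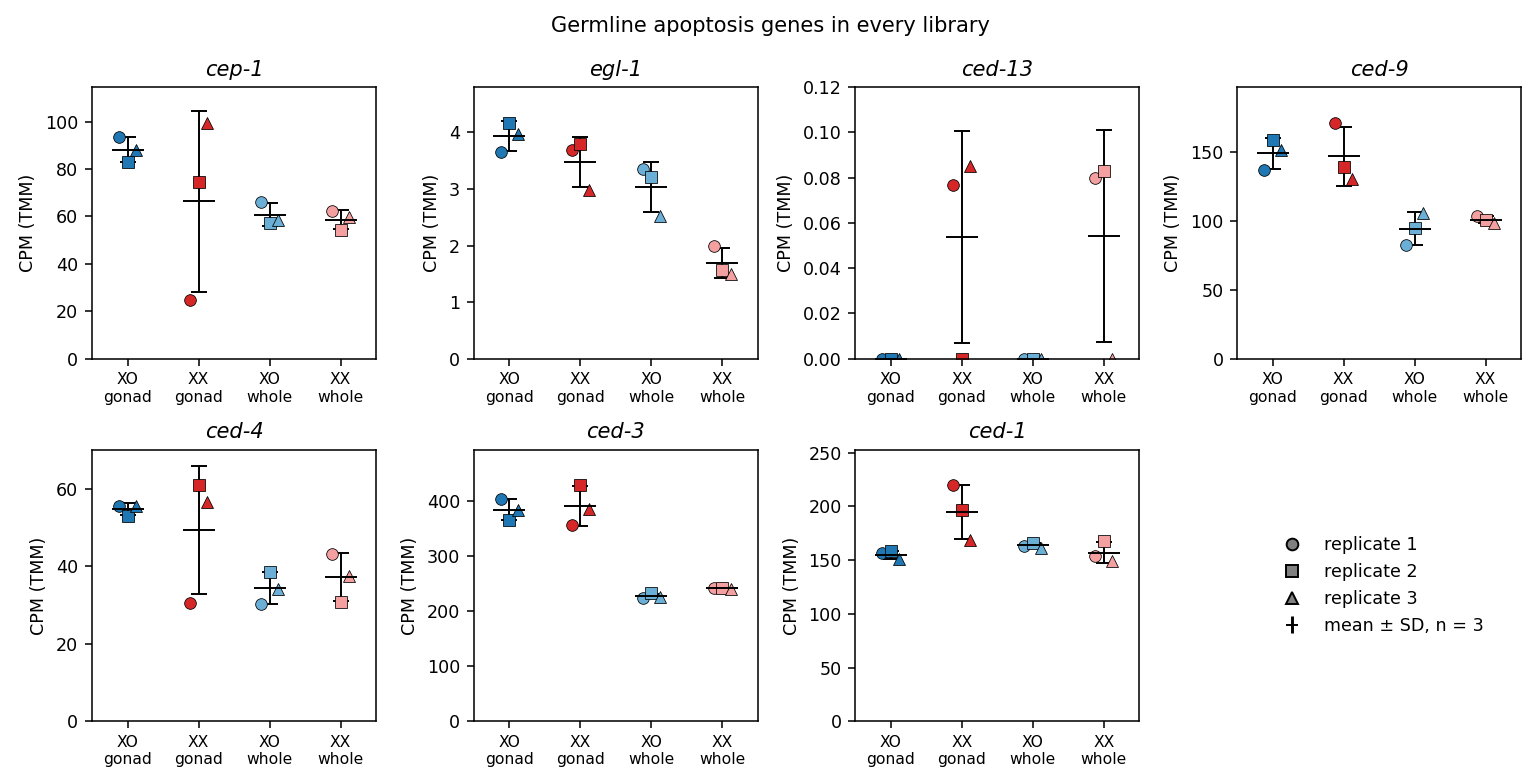
Level of each of the 7 genes in all 12 libraries, in CPM on a linear axis from 0 that differs between panels, with symbols for replicates and black bars for the mean ± SD of 3. The cep-1 and ced-4 points of XX gonad replicate 1 lie at 24.8 and 30.5 CPM, far below their partners, egl-1 is lowest in XX whole worms, and the 4 points of ced-13 above 0 are single counts.

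XO and XX gonads were compared to ask whether oogenic germlines of different X number and somatic sex differ in death genes. None of the 6 testable genes passed at a Benjamini-Hochberg adjusted p of 0.05 in the quasi-likelihood test of edgeR. Of all 8558 genes tested 27.8% passed. All 6 are autosomal, and of 7479 autosomal genes 8.41% passed as higher and 11.9% as lower in XO. Of the members 1 had an unadjusted p under 0.05 and DESeq2 also called 0. The p53-like factor cep-1 stood at 93.7, 82.8 and 88.1 CPM in XO gonads (replicates 1 to 3). In XX gonads it stood at 24.8, 74.7 and 99.6 CPM, so the groups overlapped, with replicate 1 the low value. The log2 fold change of XO over XX was 0.44 (SE 0.48, 95% interval -0.74 to 1.62, adjusted p = 0.522), and without XX gonad replicate 1 it was 0.06 (SE 0.12, interval -0.22 to 0.33, adjusted p = 0.737).

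Its target egl-1 was low but measurable in gonads, with 35 to 68 reads per library. XO gonads had 3.65, 4.17 and 3.97 CPM, against 3.68, 3.79 and 2.98 CPM in XX. The groups overlapped, and the log2 fold change of 0.20 (SE 0.18) had an interval from -0.25 to 0.64 (adjusted p = 0.462). The other BH3-only gene, ced-13, had 0 reads in all XO gonads and 1, 0 and 1 in XX gonads, so it never entered a test. Counts of 0 in 43866343 reads allow a level of up to 0.0684 CPM in XO gonads (3 counts over the group, counting error only), and the 2 reads of XX gonads correspond to 0.0486 CPM, so a difference in ced-13 was not detectable at this depth.

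The brake ced-9 stood at 137, 158 and 152 CPM in XO gonads and at 171, 139 and 129.95 in XX gonads. The groups overlapped (log2 fold change 0.05, SE 0.14, interval -0.29 to 0.38, adjusted p = 0.812), and without XX gonad replicate 1, the highest value, the log2 fold change was 0.19 (SE 0.09, interval -0.01 to 0.39, adjusted p = 0.122). The adaptor ced-4 was tight in XO gonads, at 55.6, 53.0 and 55.7 CPM, and spread in XX gonads, at 30.5, 60.9 and 56.7. With that low value from replicate 1 its log2 fold change was 0.17 (SE 0.26, interval -0.46 to 0.80, adjusted p = 0.632), and without it -0.07 (SE 0.08, interval -0.25 to 0.12, adjusted p = 0.553).

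The caspase ced-3 stood at 403, 365 and 383 CPM in XO gonads, against 356, 428 and 386 in XX. The XO values lay within the XX range, with a log2 fold change of -0.00 (SE 0.10) and an interval from -0.25 to 0.25 (adjusted p = 0.999). Of the 6 genes, ced-3 had the narrowest interval and cep-1 the widest.

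Of the 6 genes 1, the engulfment receptor ced-1, had gonad groups that did not overlap. Of the 8558 tested genes, X-linked ones included, 51.6% did not overlap and 27.8% passed the test. The receptor gene ced-1 stood at 156, 158 and 151 CPM in XO gonads and at 219.8, 196 and 169 in XX gonads, every XX library above every XO library. Its log2 fold change was -0.31 (SE 0.12, interval -0.60 to -0.01), with an unadjusted p = 0.0443 and an adjusted p = 0.118 that missed the threshold. Over 14 alternatives it ran from -0.71 to -0.20, with adjusted p from 0.0196 to 0.263, and it passed in 2 of them: without XX gonad replicate 3 (-0.43, adjusted p = 0.0350) and in the fit of all 12 libraries (-0.33, adjusted p = 0.0196), an alternative chosen after seeing the data. Without XX gonad replicate 1 it was -0.20 (SE 0.08, interval -0.38 to -0.02, adjusted p = 0.0722). Sheath cells, which use CED-1 to engulf germ cell corpses, were marked by inx-8, a gap junction gene of the sheath: XO gonads had 1.502 ± 0.378 CPM and XX gonads 101 ± 12.7. The sheath gene lim-7 was at 0.481 ± 0.226 and 5.79 ± 0.237 CPM, and none of the 8 sheath and spermatheca markers was at 0 counts in either group. Of the 6 of these markers that could be tested 4 fell in XO gonads, inx-8, lim-7, tbh-1 and ceh-18, and 2 did not pass: inx-9 (22.7 ± 4.80 CPM in XO against 18.9 ± 1.49) and fos-1 (2.06 ± 0.612 CPM against 2.77 ± 1.13). Other somatic markers differed as well. In XO gonads 12 muscle markers summed to 163 to 247 CPM, against 452 to 573 in XX, with 7 of 12 passing as lower and none as higher. The 10 hypodermis and cuticle markers summed to 199 to 221 CPM against 64.9 to 141, and all 4 that could be tested rose. Among intestine markers 4 rose and 2 fell of 7 tested. The part of any of these cells in the ced-1 values was not tested. In bulk samples fewer cells of a type and less RNA per cell cannot be told apart.

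**Figure D2:**
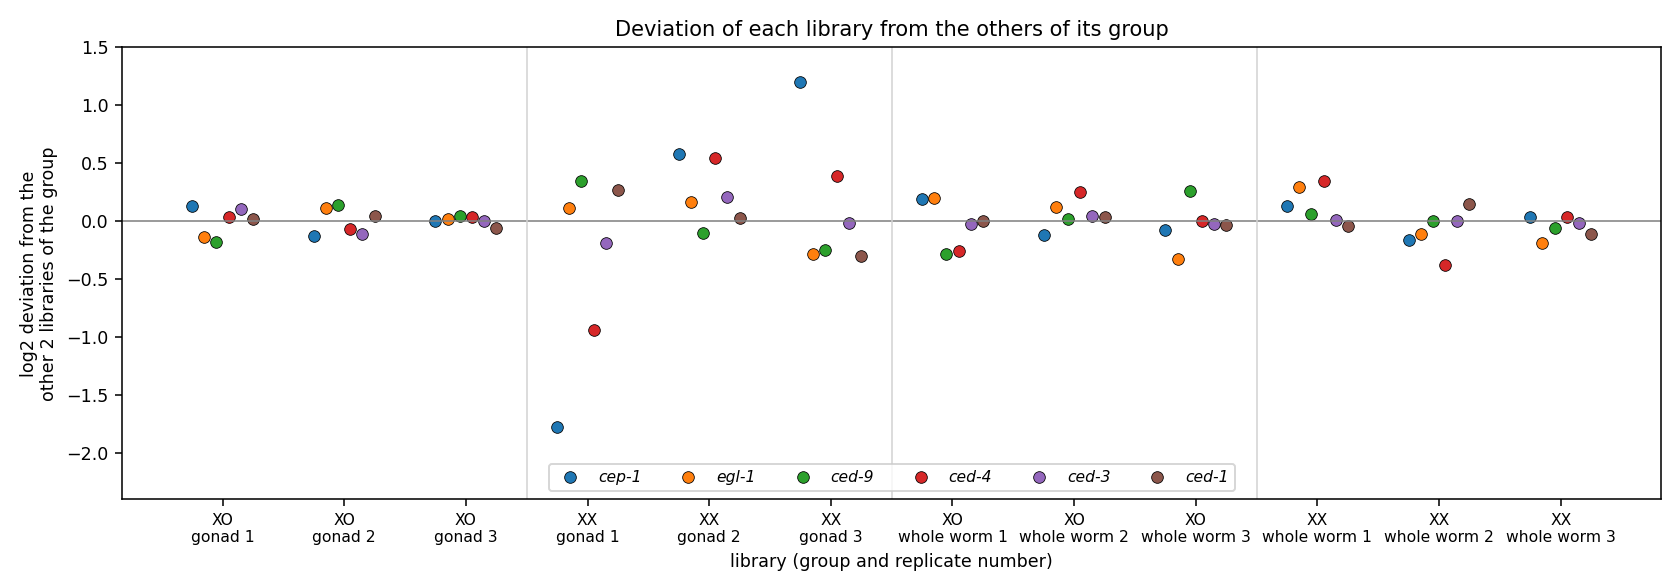
Log2 deviation of each library from the mean of the other 2 libraries of its group, for the 6 genes that could be tested, on CPM plus a pseudocount of 0.5. XX gonad replicate 1 is at -1.78 for cep-1 and -0.94 for ced-4, while ced-9 is at 0.35 and ced-1 at 0.27 in the same library. XX gonad replicates 2 and 3 are raised for cep-1 and ced-4 because each is compared with a mean that includes replicate 1.

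In whole worms 2 of the 6 genes passed the same test, egl-1 higher and ced-3 lower in XO animals (a direction that turned for ced-3 with total counts as the only scaling), against 53.4% of 12259 genes that passed, so the share of members called was below the background. The trigger egl-1 stood at 3.36, 3.21 and 2.53 CPM in XO whole worms and at 1.995, 1.57 and 1.501 in XX whole worms. Every XO library lay above every XX library, although the counts behind them were small, 29 to 40 reads against 19 to 25. Of all 12259 tested genes 60.6% did not overlap between these groups. The log2 fold change was 0.74 (SE 0.26, interval 0.18 to 1.30), a 1.67-fold higher level, with adjusted p = 0.0271. All 14 alternatives kept the direction (0.64 to 0.98), with adjusted p from 0.00583 to 0.0959, and 5 lost the call: DESeq2 (adjusted p = 0.0920) and the fits without XO whole worm replicate 1 (0.0618) or 2 (0.0884) or XX whole worm replicate 2 (0.0713) or 3 (0.0959).

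The caspase ced-3 stood at 224, 232 and 225 CPM in XO whole worms and at 242, 242 and 240.2 in XX whole worms. The groups did not overlap, nor did those of 60.6% of all tested genes. The difference was small: a log2 fold change of -0.17 (SE 0.05, interval -0.29 to -0.06, adjusted p = 0.0120), or 0.886 of the XX level. It passed in 12 of 14 alternatives, with adjusted p from 0.00766 to 0.437 over all of them, but it was lost in 2, both chosen after seeing the data: with total counts alone it turned to 0.06 (adjusted p = 0.390), and in the fit of all 12 libraries it was -0.09 (adjusted p = 0.437). The fit of all 12 libraries also has a wider common spread, with a biological coefficient of variation of 0.194 against 0.0845, and tests 12528 genes against 12259. These fits moved the median of all genes from 0.02 to 0.11 and to 0.25, and relative to that median ced-3 was at -0.19 with the main scaling, -0.20 in the fit of all 12 libraries and -0.19 with total counts. Total counts gave 5842 genes higher and 1585 lower, where the main scaling gave 3584 and 2962.

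The other 4 genes did not pass in whole worms. The brake ced-9 stood at 82.2, 94.7 and 106 CPM in XO and 104, 101 and 98.1 in XX worms, with overlapping values (log2 fold change -0.18, SE 0.08, interval -0.35 to -0.01, adjusted p = 0.0678). It passed with no filter on low counts (-0.21, adjusted p = 0.0249) and without XO whole worm replicate 3 (-0.28, adjusted p = 0.00680), and it was 0.06 with total counts. The adaptor ced-4 stood at 30.3, 38.5 and 34.2 CPM in XO and 43.3, 30.8 and 37.5 in XX worms. Its values overlapped (log2 fold change -0.20, SE 0.12, interval -0.47 to 0.08, adjusted p = 0.207), and it passed without XX whole worm replicate 2 (-0.32, adjusted p = 0.0324).

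For cep-1 the XO whole worms stood at 66.2, 57.4 and 58.4 CPM and the XX whole worms at 62.2, 54.2 and 59.6. These values interleaved, and the log2 fold change of -0.04 (SE 0.08) had an interval from -0.22 to 0.14 (adjusted p = 0.697). For ced-1 the XO whole worms stood at 164, 166 and 161 CPM and the XX whole worms at 154, 168 and 149. These values also overlapped, with a log2 fold change of -0.03 (SE 0.06, interval -0.16 to 0.11, adjusted p = 0.747) that became 0.21 (adjusted p = 0.0102) with total counts. For ced-13 there were 0 reads in XO whole worms, which allows up to 0.0888 CPM, and 1, 1 and 0 in XX whole worms.

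Whole worm libraries also differed in markers of other cells. The summed level of 12 male somatic markers was 304 to 320 CPM in XO and 14.1 to 15.6 in XX whole worms, that of 12 neuron markers was 855 to 881 and 358 to 391, and that of 12 muscle markers was 17743 to 19077 and 8196 to 10570. Lower in XO was the summed level of 11 intestine markers, at 5540 to 6221 CPM against 76624 to 103860 in XX. Most of that XX sum was the yolk genes vit-6 and vit-2, at means of 47257 and 35567 CPM, against 277 and 224 in XO. Of the 11 intestine markers 6 passed as lower and 2 as higher in XO, and asp-1 stood at 4021 ± 401 CPM in XO and 2973.5 ± 281 in XX. The 8 sheath and spermatheca markers summed to 83.7 to 88.4 CPM in XO against 267 to 307, with 4 passing as lower and 1 as higher. The 20 germline markers summed to 11734 to 13099 CPM in XO and 13718 to 14221 in XX whole worms, and 12 of the 20 passed as lower and 1 as higher in XO with the main scaling. Their part in the values of egl-1 and ced-3 was not tested.

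Whether the XO to XX difference itself differed between gonads and whole worms was tested as an interaction over all 12 libraries. Of the 6 genes 0 passed in the quasi-likelihood test of edgeR, where 17% of 12528 genes did (2.96% higher and 14.1% lower). Over 10585 autosomal genes, the class of these 6, the shares were 2.85% higher and 9.73% lower. Of the 6 genes 2 had an unadjusted p under 0.05 and DESeq2 called 0. These 2 were ced-1, with an interaction of -0.39 on the log2 scale (SE 0.13, interval -0.68 to -0.10, adjusted p = 0.0710), and egl-1, with -0.66 (SE 0.28, interval -1.26 to -0.06, adjusted p = 0.139). A negative value means that XO over XX was lower in gonads than in whole worms. The ced-1 interaction passed with total counts (-0.50, adjusted p = 0.0205) and without XX gonad replicate 3 (-0.48, adjusted p = 0.0136), and over its 19 alternatives adjusted p ran from 0.0136 to 0.415. The remaining interactions were 0.36 (SE 0.53) for cep-1, 0.26 (SE 0.31) for ced-4, 0.12 (SE 0.17) for ced-9 and 0.06 (SE 0.11) for ced-3, with adjusted p from 0.637 to 0.755. The call of egl-1 in whole worms and its lack of a call in gonads are therefore not shown to differ.

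**Figure D3:**
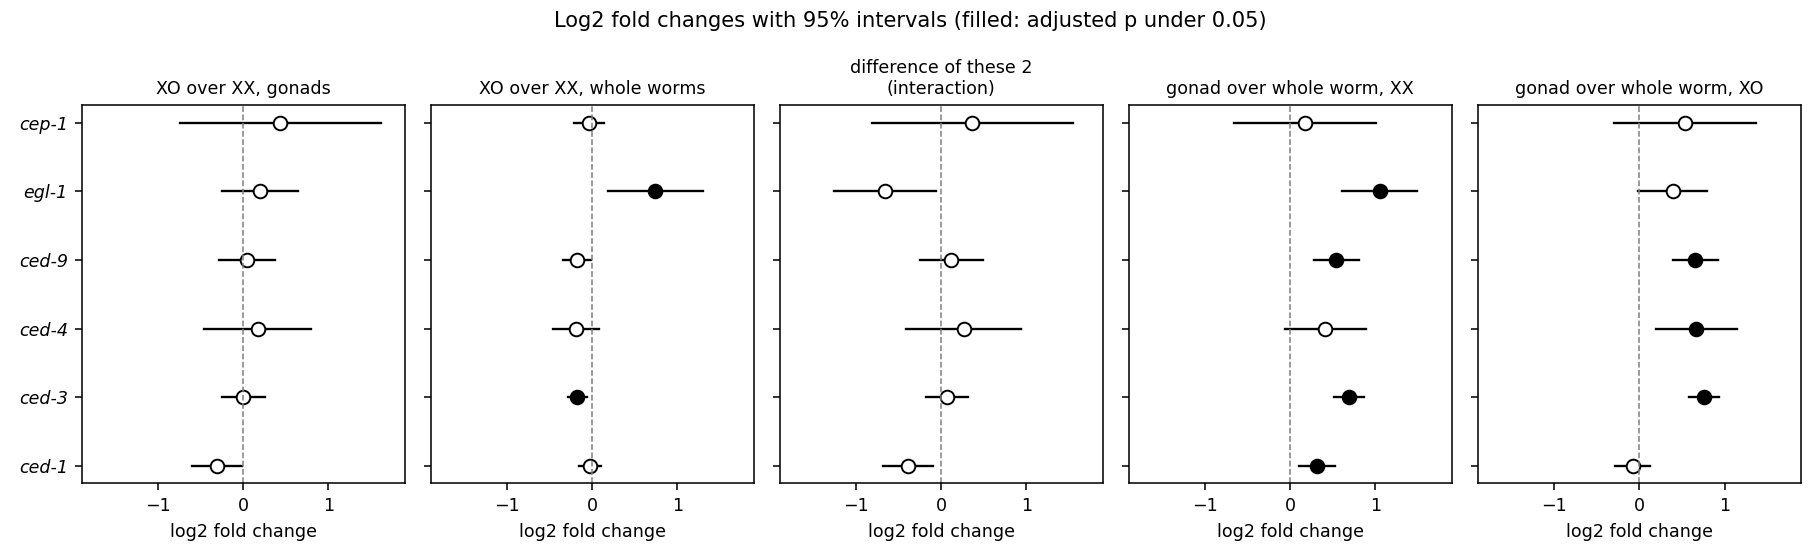
Log2 fold changes of the 6 testable genes with 95% intervals in 5 comparisons: XO over XX in gonads, the same in whole worms, the difference between these, and gonad over whole worm in XX and in XO animals. Filled points passed at an adjusted p under 0.05: none in gonads or in the interaction, egl-1 and ced-3 in whole worms (ced-3 at -0.17, but 0.06 and not passing with total counts), and 4 and 3 genes in the gonad to whole worm comparisons.

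Gonads were then set against whole worms of the same karyotype. The values compare levels scaled within each library, and do not give the part of a transcript that sits in the organ. These comparisons reuse the libraries above. In XX animals 4 of 6 genes were higher in gonads, against 71% of 12528 genes that passed, 28.5% as higher and 42.4% as lower. In XO animals 3 of 6 were higher, against 79.8% that passed, 29.6% higher and 50.3% lower. The median log2 fold change of the 6 was 0.47 in XX and 0.60 in XO animals, beside medians of all tested genes of -0.32 and -0.83. All 6 are autosomal, and over 10585 autosomal genes the medians were -0.11 and -0.15. Of these autosomal genes 32.1% were higher and 38.4% lower in XX gonads, and 34.3% higher and 44.1% lower in XO gonads. Under DESeq2's size factors the medians of all genes shifted to -0.48 and -0.97.

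Among the members, ced-3 and ced-9 passed in both karyotypes and under all 19 alternatives of each. Relative to the whole worm the caspase ced-3 was higher in the gonad by 0.69 on the log2 scale in XX (SE 0.08, adjusted p = 8.25e-06) and by 0.76 in XO animals (SE 0.08, adjusted p = 2.50e-06). The brake ced-9 was higher by 0.54 (SE 0.12, adjusted p = 0.00136) and by 0.66 (SE 0.12, adjusted p = 0.000258). In both genes every gonad library lay above every whole worm library of its karyotype. Of all 12528 tested genes 72.6% did not overlap between these groups in XX and 87.3% in XO animals. The summed germline markers were higher in gonads as well, and their part in these values was not tested.

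The trigger egl-1 was higher in XX gonads than in XX whole worms by 1.05 (SE 0.20, adjusted p = 0.000493), a 2.07-fold difference that passed under all 19 alternatives. Its libraries did not overlap there, nor did those of 72.6% of all tested genes. In XO animals its difference was 0.39 (SE 0.19, interval -0.01 to 0.80, adjusted p = 0.0698). The libraries did not overlap, nor did those of 87.3% of all tested genes, but the test missed the threshold. This difference passed in 1 of 19 alternatives, with the trend on exon length removed (0.73, adjusted p = 0.00356). The karyotype by tissue interaction given above is the test of the difference between these values, and it did not pass.

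Both cep-1 and ced-4 depended on XX gonad replicate 1 here, which is one of the libraries compared in XX animals and enters the spread of the XO comparison, since all 12 libraries are fitted together. In XX animals ced-4 was 0.41 higher in gonads (SE 0.22, adjusted p = 0.115), and without that library 0.67 higher (SE 0.12, adjusted p = 7.28e-05). In XO animals ced-4 was 0.67 higher (SE 0.22, adjusted p = 0.0139), a call that was lost without XO whole worm replicate 1 (adjusted p = 0.0532). The p53-like factor cep-1 was 0.18 higher in XX gonads (SE 0.37, adjusted p = 0.701) and 0.54 higher in XO gonads (SE 0.37, adjusted p = 0.207). Without XX gonad replicate 1 these became 0.58 (SE 0.11, adjusted p = 0.000150) and 0.55 (SE 0.10, adjusted p = 6.23e-05), so that both genes then passed in both karyotypes. Most genes passed in that fit. Of 13038 genes on all chromosomes, X included, 33.7% were higher and 42.3% lower in XX gonads, and 34.2% were higher and 52.2% lower in XO gonads. With that library kept and the trend on exon length removed, cep-1 was at -0.04 in XX animals (adjusted p = 0.903).

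The engulfment receptor ced-1 did not pass between XO gonads and XO whole worms (log2 fold change -0.08, SE 0.10, interval -0.29 to 0.13, adjusted p = 0.459). In XX animals it was 0.31 higher in gonads (SE 0.10, interval 0.10 to 0.52, adjusted p = 0.0107). That call passed in 13 of 19 alternatives and was lost with DESeq2's size factors (adjusted p = 0.234), its Wald test (0.282), scaling on autosomal genes (0.223), no filter (0.0614), the length trend removed (0.0601) and without XX gonad replicate 2 (0.160). The order of ced-1 levels was XX gonad, XO whole worm, XX whole worm and XO gonad, and only the first was free of overlap with its neighbour. Apart from ced-13, the orders of the others put both gonad groups first, and XO and XX gonads overlapped in each of these 5 genes.

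The genes whose centred profiles over the 12 libraries were nearest to each member, by the root mean square difference of log2(CPM + 0.5) among 12527 genes, were found as a description. For ced-3 they were ksr-2, a Ras pathway scaffold of the germline, at 0.0520 and oma-1, an oocyte RNA-binding protein, at 0.0533. Nearest to ced-9 were F25H2.4 (0.0555) and mrpl-51, a mitochondrial ribosomal protein (0.0598). Nearest to ced-4 were szy-4 (0.0977) and oef-1 (0.103), nearest to cep-1 were ulp-1, a SUMO protease (0.0724), and C13F10.6 (0.0770), and nearest to ced-1 were mdh-2, the mitochondrial malate dehydrogenase (0.0513), and rab-11.1 (0.0559). The match of egl-1 was looser, with mrpl-18 at 0.137 and bath-3 at 0.151. The median difference over all genes was 0.74 to 0.93 per member, and all profiles share the same 12 libraries, including the one that stood apart.

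The rest of the pathway was described from 6 lists with 133 genes in the tables, 19 of them X-linked. In gonads 118 could be tested and 18 of them (15.3%) passed, 2 higher and 16 lower in XO, where 27.8% of all genes passed, 8.07% higher and 19.7% lower. The split followed the chromosome. Of 16 tested X-linked genes 15 fell, with a median log2 fold change of -2.79 over the 16, beside 777 of all 955 tested X-linked genes (81.4%) with a median of -2.90. Of 102 autosomal genes 1 fell and 2 rose, with a median of 0.24, beside 11.9% lower and 8.41% higher among 7479 autosomal genes with a median of 0.08. With scaling on autosomal genes the autosomal split was 4 lower and 0 higher. Without XX gonad replicate 1 all 16 X-linked genes fell, and of 103 autosomal genes 22 rose and 7 fell. In that fit 42.6% of all genes were called, X-linked ones included, and the share over autosomal genes alone was not taken.

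Among other caspase and execution genes 3 of 14 tested fell in XO gonads and none rose, all 3 X-linked. They were dct-1, a BNIP3-like mitochondrial protein, with 0.892 ± 0.133 CPM in XO gonads against 15.5 ± 0.874 in XX, and fis-2, a mitochondrial fission factor, at 6.10 ± 0.191 and 36.1 ± 4.70. Their log2 fold changes were -4.07 (SE 0.18, adjusted p = 3.24e-05) and -2.54 (SE 0.14, adjusted p = 5.99e-05). The third was ced-8, which exposes phosphatidylserine on dying cells, with 6 reads in XO gonads, all of them in replicate 2, and 154 in XX gonads, a ratio of XX to XO of 27.4 with a counting interval from 12.3 to 75.7. Without that replicate XX gonads were at least 34.6-fold higher, taking 3 counts over the group as the floor.

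Among engulfment genes, which act with or beside ced-1, 4 of 16 fell and none rose. The large GTPase dyn-1, which acts downstream of CED-1 in corpse removal, had 25.9 ± 3.58 CPM in XO gonads against 141 ± 14.02 in XX (log2 fold change -2.43, SE 0.15, adjusted p = 8.61e-05). The Rac-like GTPase mig-2 and the kinase abl-1 fell by 3.05 and 3.87, both X-linked like dyn-1. The autosomal member that fell was nrf-5, a secreted lipid-binding protein, at 1.63 ± 0.553 against 4.36 ± 0.735 CPM (log2 fold change -1.38, SE 0.31, adjusted p = 0.0177).

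Among corpse and DNA clearance genes 6 of 21 fell, all X-linked, and none rose. They included the lysosomal membrane gene lmp-1, with 10.9 ± 0.891 CPM in XO gonads against 144 ± 7.40 in XX (-3.70, SE 0.12, adjusted p = 2.74e-05). The others named by the rule were the sorting nexin snx-1 (-2.65), the nuclease crn-4 (-2.72) and the small GTPase rab-14 (-4.46). Among 33 tested regulators of cep-1 and germline apoptosis 3 fell and none rose, the X-linked kinases pdk-1 (-3.02) and akt-2 (-2.85) and the Ras pathway scaffold ksr-1 (-2.51). The 12 tested somatic regulators of egl-1 and ced-3 had a median of -0.03, beside 0.02 over all genes.

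The DNA damage checkpoint list, which holds no X-linked gene, had 2 of 22 higher in XO gonads, none lower and a median of 0.39, a share near the 8.41% higher among all autosomal genes. They were brc-2, the BRCA2 homolog that loads RAD-51, with 50.95 ± 1.12 CPM in XO gonads against 39.4 ± 4.10 in XX (0.40, SE 0.11, adjusted p = 0.0419), and brd-1, the partner of the BRCA1 homolog, at 76.8 ± 2.75 and 55.7 ± 9.86 (0.49, SE 0.14, adjusted p = 0.0474). Over 14 alternatives the adjusted p of brc-2 ran from 0.0112 to 0.144 and it passed in 6, and that of brd-1 ran from 0.00959 to 0.162 and it passed in 7. Without XX gonad replicate 1, 7 of the 22 were higher, none was lower and the median was 0.19. In that fit 18.8% of 8885 genes on all chromosomes, X included, were higher and 23.8% lower. The share over autosomal genes alone was not taken there, so this background is not that of an autosomal list.

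**Figure D4:**
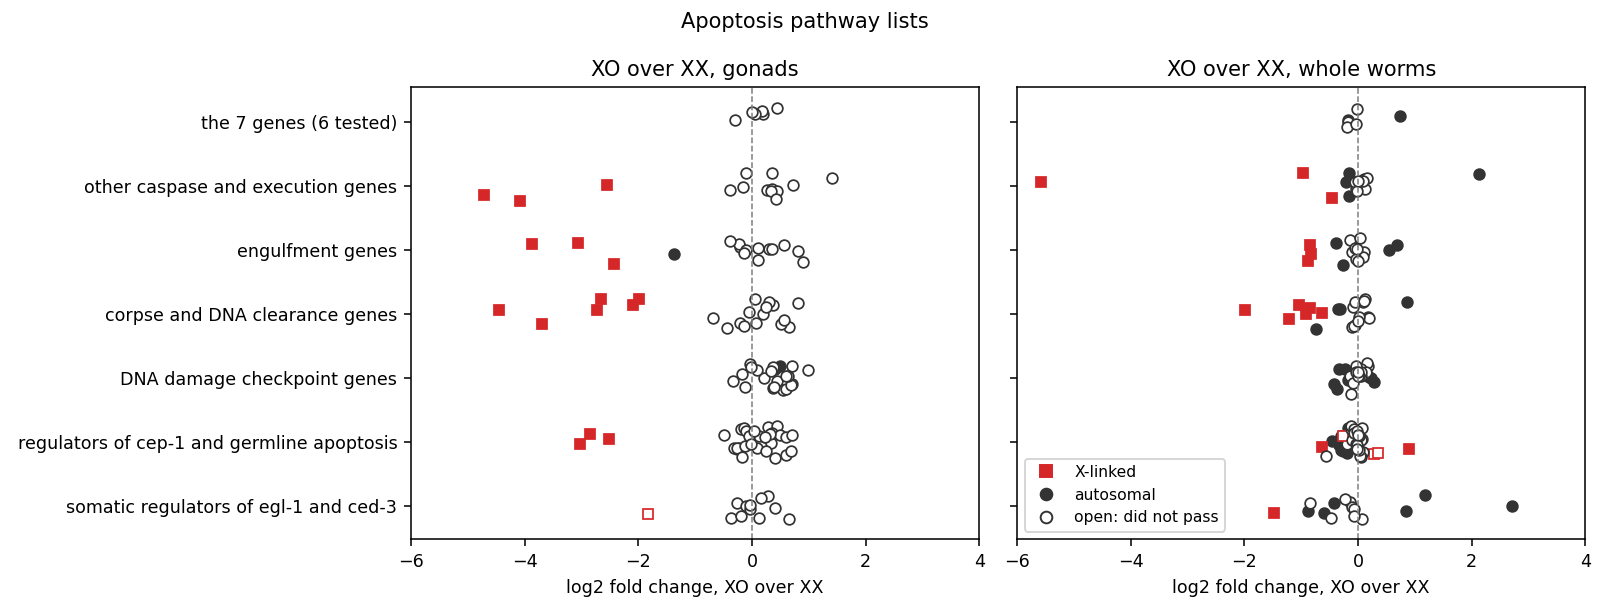
Log2 fold change of XO over XX for every tested gene of the 7-gene set and of 6 other pathway lists, in gonads and in whole worms; squares are X-linked, circles autosomal, and filled symbols passed at an adjusted p under 0.05. In gonads 15 of 16 X-linked genes are filled and lie at -1.98 or below, while the autosomal genes, the 6 members among them, gather around 0.

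In whole worms 126 of the pathway genes could be tested and 53 (42.1%) passed, 12 higher and 41 lower in XO, where 29.2% of all genes were higher and 24.2% lower. Of 18 X-linked genes 14 fell and 1 rose, with a median of -0.85, beside 42.1% lower among all 1716 X-linked genes tested. Of 108 autosomal genes 27 fell and 11 rose, a share of 25.0% lower beside 21.3% among all autosomal genes. With total counts, which raise the median of all genes to 0.25, the autosomal split turned to 5 lower and 49 higher and the X-linked one to 13 lower and 3 higher, and in the fit of all 12 libraries the autosomal genes gave 7 lower and 9 higher. The checkpoint kinase chk-1 (-0.23, adjusted p = 0.0144) became 0.0080 with total counts. The autosomal counts of each list below are those of the main scaling.

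Other caspase and execution genes had 1 higher and 6 lower of 15 in whole worms. The caspase-related csp-2 rose (log2 fold change 2.12, SE 0.53, adjusted p = 0.00395) at a level of 1.52 ± 0.612 CPM in XO and 0.349 ± 0.259 in XX worms. The phosphatidylserine gene ced-8 had 3 reads in XO and 168 in XX whole worms, a ratio of XX to XO of 45.7 with a counting interval from 15.4 to 224, and fis-2 and dct-1 fell by 0.97 and 0.46, although dct-1 did not pass with total counts (adjusted p = 0.209), in the fit of all 12 libraries (0.0575) or without XX whole worm replicate 1 (0.0703). Engulfment genes had 2 higher and 5 lower of 16. The integrin subunit pat-2 (0.68) and the Rac exchange factor unc-73 (0.54) rose, and dyn-1 (-0.82) and abl-1 (-0.88) fell. In the fit of all 12 libraries unc-73 and abl-1 did not pass (adjusted p = 0.320 and 0.125).

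Clearance genes had 2 higher and 9 lower of 22, with crn-4 (-1.98), snx-1 (-1.21), lmp-1 (-1.04) and nuc-1, the lysosomal nuclease that degrades DNA of dead cells (-0.85). Checkpoint genes had 3 higher and 5 lower of 22, the largest named being rpa-2 (-0.42) and mlh-1 (0.27), with polq-1 at 0.23 (adjusted p = 0.0178, and 0.831 in the fit of all 12 libraries). Of 36 regulators of cep-1 and germline apoptosis 1 rose and 12 fell. The translational repressor gld-1, which limits cep-1 translation in the germline, was at 703 ± 4.45 CPM in XO and 909 ± 11.4 in XX worms (-0.46, SE 0.06, adjusted p = 3.63e-05), and efl-1 (-0.34), hpl-2 (-0.30) and ksr-1 (-0.63) fell with it. With total counts efl-1 and hpl-2 did not pass (adjusted p = 0.288 and 0.527).

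Somatic regulators of egl-1 and ced-3 had 3 higher and 4 lower of 15 in whole worms. The sex determination factor tra-1, which represses egl-1 in the HSN neurons of hermaphrodites, was at 134 ± 2.31 CPM in XO and 55.8 ± 3.34 in XX worms (log2 fold change 1.18, SE 0.06, adjusted p = 2.05e-09). The Hox gene mab-5, known to act on egl-1 in a lineage of the ventral cord, was at 7.45 ± 0.595 and 1.05 ± 0.272 CPM (2.70, SE 0.23, adjusted p = 3.80e-07). The transcription factor hlh-2, an activator of egl-1 in specific cells, was at 29.4 ± 2.36 and 51.3 ± 6.50 CPM (-0.88, SE 0.10, adjusted p = 7.24e-06), and the X-linked eor-2 fell by 1.48. In gonads tra-1 stood at 88.2 ± 1.81 CPM in XO and 56.9 ± 13.8 in XX.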

How the data were processed

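The authors deposited raw read counts per gene for each of the 12 libraries. Per the labels' protocols, polyadenylated RNA was captured with oligo(dT) beads and made into strand-keeping cDNA libraries, and per the submitters' processing notes the tools included HTSeq, TopHat2 2.0.12, Cufflinks 2.2.0, CASAVA 1.8 and SAMtools 1.2. The build, annotation and strand setting of the counting are not given in the sources used here. The deposited summary lines for reads with no feature (1.90 to 6.42%), ambiguous reads (0.728 to 1.09%) and reads without a unique position (4.99 to 20.3%) were left out of library sizes and tests.

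Of the 20389 gene rows 19857 were matched by name to the Ensembl WBcel235 annotation, which gave symbols, chromosomes and summed exon lengths, and 7 of 248 list symbols found no row. Levels are CPM from these counts with TMM factors over all 12 libraries. Tests were edgeR 4.0.16 quasi-likelihood tests in R 4.3.3 (TMM, filterByExpr with a minimum count of 10, robust fit, two-sided, Benjamini-Hochberg over all tested genes at 0.05), on 6 libraries for each XO against XX comparison and on all 12 for the interaction and the gonad against whole worm comparisons. Standard errors were taken from the F statistic, and intervals are 95%. The intervals of the ced-8 ratios and the floors of 3 counts cover counting error only. The scripts were tested on simulated data.

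Alternatives were DESeq2 1.42.0 size factors and its Wald test, TMM on autosomal genes, no filter, removal of a lowess trend on exon length (span 0.3, fitted within each library), the replicate number as a block and leaving out each library. Total counts as the only scaling, and the XO against XX contrasts in the fit of all 12 libraries, were added after seeing the data. Besides the 7 genes, the text names from each other list up to 4 genes with the smallest adjusted p that passed and reached a mean of 1 CPM in a group, and the 2 genes nearest to each member in profile. The genes inx-8, lim-7 and fog-1 are named as markers. The members and lists were chosen with earlier results of these data known. No sequences are printed, since no sequence tables were used here.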

Additional observations from a re-analysis of the deposited data

Results flagged for a closer look

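Among the 126 other pathway genes tested, 17 (13.5%) had an XO to XX difference that itself differed between gonads and whole worms, by the karyotype by tissue interaction (quasi-likelihood test of edgeR, Benjamini-Hochberg adjusted). In each of the 17 the log2 value was negative, so XO over XX was lower in gonads than in whole worms. Of 18 tested X-linked pathway genes 15 (83.3%) passed, where 40.7% of all 1763 tested X-linked genes passed as lower. These shares are not over like sets. In gonads alone 16 X-linked pathway genes but only 955 of all X-linked genes had counts enough to be tested, and 81.4% of the 955 were lower in XO. Of 108 autosomal pathway genes 2 (1.85%) passed, where 9.73% of all 10585 autosomal genes passed as lower. Of the 7 members, 6 were tested and 0 passed. The genes named for their XO to XX difference account for 14 of the 17, and the other 3, crn-7, piki-1 and gap-1, are named here after their values were seen.

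The interaction of the mitochondrial genes was -3.73 for dct-1 (SE 0.24, adjusted p = 3.93e-07) and -1.68 for fis-2 (SE 0.16, adjusted p = 1.27e-05). Engulfment genes gave -2.32 for mig-2 (adjusted p = 1.32e-05), -1.71 for dyn-1 (6.69e-06) and -3.10 for abl-1 (0.00679). Clearance genes gave -2.77 for lmp-1 (adjusted p = 1.41e-07), -1.55 for snx-1 (6.09e-06), -0.85 for crn-4 (0.0195), -3.65 for rab-14 (1.25e-06), -1.25 for nuc-1 (0.000387) and -1.56 for piki-1 (0.0328). Regulators gave -2.87 for pdk-1 (adjusted p = 1.05e-06), -1.99 for ksr-1 (0.000410), -3.31 for akt-2 (0.000102) and -4.71 for gap-1 (0.000749). The autosomal genes were the nuclease crn-7, at -1.66 (SE 0.29, adjusted p = 0.00149), and nrf-5, at -1.38 (SE 0.27, adjusted p = 0.00324). For nrf-5 whole worms held 41.7 ± 2.80 CPM in XO and 42.1 ± 2.90 in XX, far above its gonad levels of 1.63 ± 0.553 and 4.36 ± 0.735 CPM.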

How the results depend on the processing

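In XO against XX gonads 0 members passed, and leaving out one library gave 0 to 1, and 1 passed in the fit of all 12 libraries. All genes called ranged from 1741 to 3785 when one library was left out, and were 4046 in the fit of all 12. In whole worms 2 members passed, with 1 under DESeq2's Wald test, 1 in the fit of all 12 libraries, and 1 to 3 when one library was left out. In the interaction 0 passed, 1 with total counts, and 0 to 1 when one library was left out.

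Log2 values that changed sign were the following. In gonads ced-3 was 0.0259 with DESeq2's size factors, 0.0257 with its Wald test, 0.0043 with the replicate block and 0.0160 with total counts, and -0.0489 to 0.0781 when one library was left out. There ced-4 ran from -0.0655 to 0.36 and ced-9 from -0.0607 to 0.19 when one library was left out, with ced-9 at -0.0156 under autosomal scaling. In whole worms total counts gave 0.21 for ced-1, 0.0633 for ced-3, 0.0355 for ced-4, 0.0551 for ced-9, 0.19 for cep-1 and 0.0080 for chk-1, and the fit of all 12 libraries 0.0606 for ced-1 and 0.0489 for cep-1. Leaving out one library moved ced-1 there from -0.0768 to 0.0186. The interaction of ced-3 was -0.0886 with the length trend removed and -0.0479 with total counts, and that of cep-1 ran from -0.0259 to 0.78 when one library was left out. In XX gonad over whole worm cep-1 was -0.0060 with DESeq2's size factors, -0.0065 with its Wald test, -0.0013 under autosomal scaling and -0.0407 with the length trend removed, and ran from -0.23 to 0.58 when one library was left out. Total counts move the median of all genes in whole worms from 0.02 to 0.25; for the other values the cause was not tested.

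Deviations of same-numbered libraries of different groups correlated from -0.27 to 0.063. Libraries of different numbers were not compared in this way, so whether replicate numbers pair the samples was not settled. With the replicate block 1622 genes passed in gonads against 2376, no autosomal pathway gene did, nrf-5 was lost (adjusted p = 0.0737), and no call of a member changed. At 19 to 68 reads per library egl-1 is limited by depth, and ced-13, with at most 1 read per library, could not be tested.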

Other observations

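The other pathway lists were also set between gonad and whole worm. Of 22 DNA damage checkpoint genes 12 were higher in XX gonads than in XX whole worms and none was lower by edgeR's quasi-likelihood test. In XO animals 13 were higher and none lower. Over all genes 28.5% (XX) and 29.6% (XO) were higher and 42.4% and 50.3% lower. The checkpoint list holds no X-linked gene, and over 10585 autosomal genes 32.1% and 34.3% were higher and 38.4% and 44.1% lower. Regulators of cep-1 and germline apoptosis had 20 higher and 6 lower of 36 in XX, and 22 higher and 7 lower in XO animals. Other caspase and execution genes had 6 higher and 1 lower of 15 in XX, and 7 higher and 3 lower in XO animals. Clearance genes had 12 higher and 6 lower of 22 in XX, and 9 higher and 8 lower in XO animals. Engulfment genes had 6 higher and 4 lower of 16 in XX, and 5 higher and 6 lower in XO animals. Somatic regulators of egl-1 and ced-3 had 3 higher and 4 lower of 15 in XX, and 4 higher and 6 lower in XO animals. Of the 20 germline markers 17 were higher in gonads in both karyotypes, and their part in these counts was not tested.

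Among the 18 tested X-linked pathway genes 6 were higher and 7 lower in XX gonads than in XX whole worms, beside 7.66% higher and 67.4% lower among all 1763 tested X-linked genes. The 1763 include many with too few gonad counts to be tested in gonads alone, where 955 were tested. In XO animals 0 were higher and 16 lower (88.9%), beside 1.99% and 88.0% of all X-linked genes, so the XO share lower is that of the chromosome. The comparisons of the 2 karyotypes use separate libraries, and the difference between them is the interaction given for single genes above.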
